A study of Homo sapiens with 6 samples.

Results

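The genes described are 10 interferon-induced genes, taken as the rows of the deposited table whose symbol is IFIT1, IFIT2, IFIT3, IFIT5, ISG15, IFI6, IFI44, IFI44L, OAS1 or MX1. They are 10 of the 61806 genes in the table, each with a single row. Poly(A) RNA was sequenced from 293T cells, a long-used line of human embryonic kidney origin, after lipid transfection with a plasmid labelled GFP (3 libraries) or a plasmid labelled GFP-812 (3 libraries). GFP is a green fluorescent protein, the labels do not explain the number in GFP-812, and the series title names truncated NEK1 and ribosomal RNA biogenesis. Every library came from transfected cells, so the data compare one plasmid with the other and hold no untransfected level. The labels do not say whether the replicates were separate cultures, and every p-value therefore rests on library-to-library spread that may be technical.

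Interferons are secreted proteins that cells make when sensors such as RIG-I, MDA5 or the cGAS and STING pair meet foreign RNA or DNA. They bind receptors on the same and neighbouring cells, and the kinases JAK1 and TYK2 then activate transcription factors, STAT2 among them, which join IRF9 and bind a short DNA motif, the interferon-stimulated response element (ISRE). The genes so induced encode antiviral proteins. 293T cells are known for weak DNA sensing, and transfected plasmid DNA is a known trigger of this response in cells that have the sensors.

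The ISRE is shown first because it is the feature by which these genes are commonly recognised. Promoter windows of 300 bases, from 250 before to 50 after each RefSeq start site (GRCh38.p14, the assembly also called hg38), were searched on both strands for the ISRE core: GAAA, any 2 bases, then GAAA again, which reads TTTC, any 2 bases, TTTC on the other strand. Of the 10 genes, 9 had at least 1 window, and IFIT2 was not among them. The motif lay in 8 of those 9 genes, against 4.38% of 27305 genes, and in 11 of their 13 windows, against 3.57% of 35116 windows. The window of OAS1 held no match to this pattern, which fixes the gap at 2 bases. It does hold gaaacgaaa, with 1 base in the gap, so the search misses such forms. The stretches with matches in the 6 tested genes that had a window are printed 5′ to 3′ on the gene's own strand, with the motif in capitals, because they come from genes whose fitted changes pointed in both directions.
IFIT1, chr10:89392495-89392541, plus strand: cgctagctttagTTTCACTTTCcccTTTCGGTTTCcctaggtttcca
IFIT3 at its first start site, chr10:89327829-89327896, plus strand: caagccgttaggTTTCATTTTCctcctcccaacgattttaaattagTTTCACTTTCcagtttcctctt
IFIT3 at its second start site, chr10:89332423-89332499, plus strand: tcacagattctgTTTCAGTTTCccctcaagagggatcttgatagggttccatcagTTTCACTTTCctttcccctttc
IFIT5, chr10:89414511-89414585, plus strand: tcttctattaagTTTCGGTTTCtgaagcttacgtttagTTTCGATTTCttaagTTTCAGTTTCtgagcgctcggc
ISG15, chr1:1013372-1013411, plus strand: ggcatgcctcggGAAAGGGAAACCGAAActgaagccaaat
IFI6, chr1:27672264-27672360, minus strand: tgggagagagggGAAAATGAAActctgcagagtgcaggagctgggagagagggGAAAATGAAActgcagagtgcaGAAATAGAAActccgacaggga
IFI44L, chr1:78620272-78620396, plus strand: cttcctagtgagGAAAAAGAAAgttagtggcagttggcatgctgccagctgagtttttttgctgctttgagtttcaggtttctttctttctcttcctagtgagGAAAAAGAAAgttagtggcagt

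Each of these stretches held at least 2 matches, and IFIT3 had 2 in each of its 2 windows. The 2 matches of ISG15 overlap. IFIT5 carried 3 matches, of which the last crosses the start site, and IFI6 carried 3. The 2 matches in IFI44L belong to copies of the same sequence, since an exact stretch of 85 bases occurs again 91 bases downstream. In IFI6 an exact stretch of 29 bases that includes the motif occurs again 41 bases downstream. The longest exact repeat in the window of IFIT5 was 12 bases, away from its motifs, and no repeat of 12 bases or more was found in the windows of IFIT1, IFIT3 or ISG15. IFI44 had 1 match, which lies in both of its 2 overlapping windows and is counted in each. MX1 had 1 match at each of 2 of its 3 start sites. The MX1 window without a match holds tttcgtttc and tttcatttc, with 1 base in the gap, which the pattern cannot find. A match is a description of the letters and does not show that a factor binds there.

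**Figure D1:**
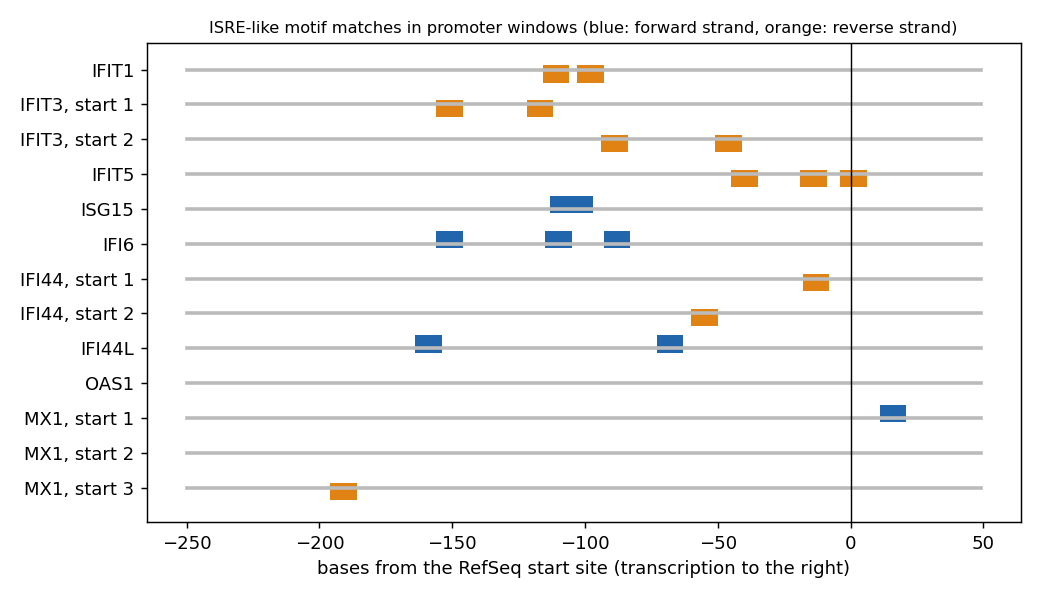
Positions of matches to the ISRE core in the 13 promoter windows of 9 genes, in bases from the RefSeq start site (vertical line at 0, transcription to the right), blue on the gene's own strand and orange on the other. The 2 matches of ISG15 overlap, OAS1 and the start of MX1 numbered 2 have no match, and the other 11 windows have 1 to 3.

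Total counts were 14255148 to 17613814 per library, and 3 counts in a library, the limit that a count of 0 allows (counting error only), correspond to 0.17 to 0.21 CPM, a count scaled to the library total. NEK1, the check of the plasmid label, stood at 562.7, 518.3 and 493.7 FPKM in the GFP-812 libraries and at 3.82, 3.99 and 3.91 FPKM in the GFP libraries. FPKM is a count divided by gene length and library total. GFP replicate 3 stood apart from the other GFP libraries: edgeR called 1317 genes without it and 647 with it. It also had the highest CPM among the GFP libraries for 8 of the 10 interferon-induced genes, and several values are also given without it. The cells expressed the epithelial keratins KRT18 and KRT8 and the kidney progenitor factor SIX2, while UMOD was at 0 in every library. Of 7 epithelial markers 3 lay under 1 FPKM throughout, and of 10 kidney markers 6 did.

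The levels of the 10 genes ranged from a few FPKM to a handful of counts. Per length, averaged over the 6 libraries, IFIT1 was highest at 5.15 ± 0.743 FPKM (SD, n = 6), followed by IFIT5 at 4.08 ± 0.35, ISG15 at 3.94 ± 0.896, IFI6 at 2.62 ± 0.569 and IFIT2 at 1.86 ± 0.271 FPKM (SD, n = 6 each). IFIT3 stood at 0.693 ± 0.0692 FPKM and IFI44L at 0.23 ± 0.0961 FPKM (SD, n = 6 each), and IFI44, MX1 and OAS1 were lower still. Neighbours in this order overlapped in range except at 2 steps, from IFIT2 down to IFIT3 and from IFIT3 down to IFI44L. Within libraries, IFIT1 exceeded IFIT5 in 6 of 6 and ISG15 exceeded IFI6 in 6 of 6. IFIT5 exceeded ISG15 in 4 of 6 libraries, which were all 3 GFP-812 libraries and 1 of 3 GFP libraries. IFIT1 alone held 34.2% to 42.2% of all counts of the 10 genes, and IFIT5 27.8% to 29.9%.

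**Figure D2:**
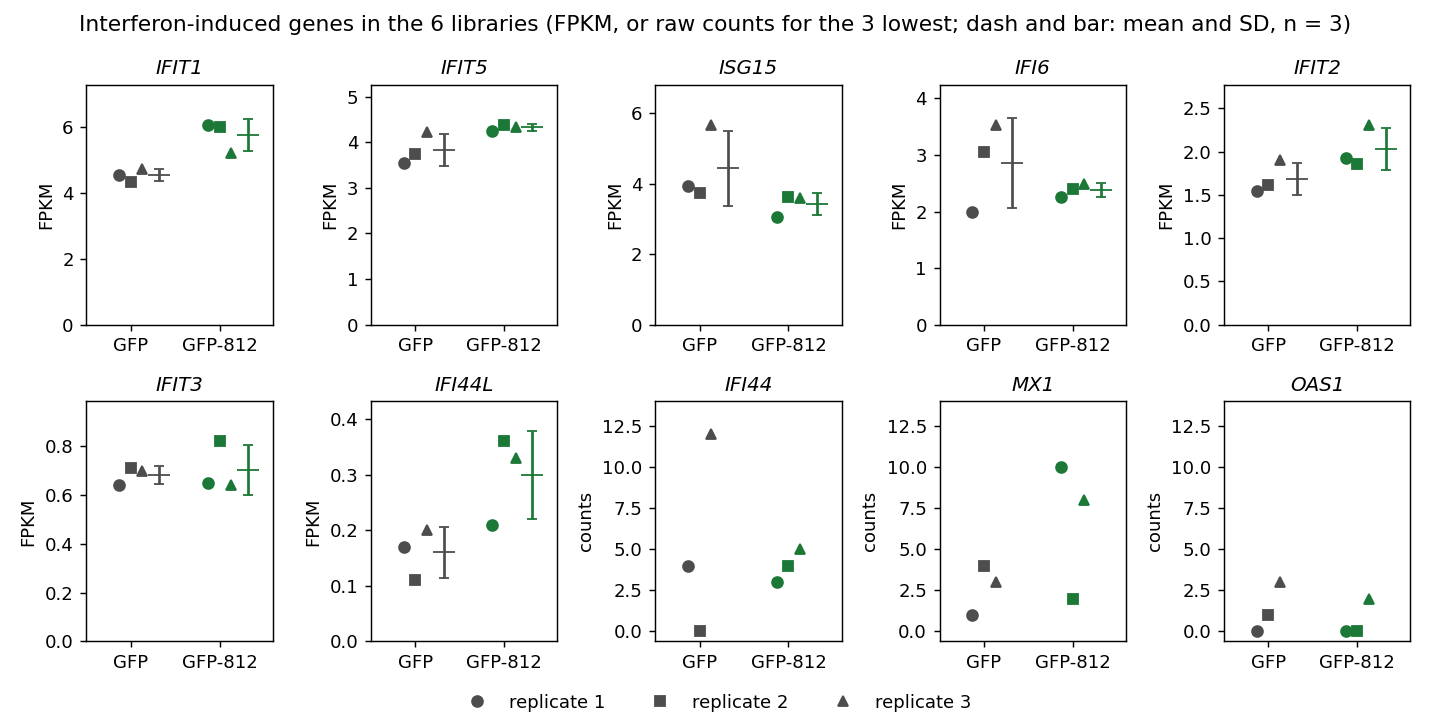
Level of each gene in the 3 GFP libraries (grey) and 3 GFP-812 libraries (green), in FPKM for 7 genes and in raw counts for IFI44, MX1 and OAS1; the symbol gives the replicate number, and the dash and bar beside the FPKM points are the mean and SD of 3 libraries. The groups are separate for IFIT1, IFIT5, ISG15 and IFI44L, and GFP replicate 3 (grey triangle) is the highest GFP library in 8 of the 10 panels when counts are scaled to library totals.

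In GFP-812 cells 2 of the 10 genes were higher than in GFP cells, IFIT1 by 1.28-fold and IFI44L by 1.88-fold, and no gene passed the test in the other direction. A low-count filter left 7 of the 10 genes for the test, of which 2 rose, 0 fell and 5 did not pass at an adjusted p of 0.05 (edgeR's quasi-likelihood test, Benjamini-Hochberg over all 16834 genes tested). Of all genes tested, 1.18% were called risen, 2.67% fallen and 3.84% either way. Fitted log2 fold changes lay above 0 for 5 of the 7, against 51.8% of all genes tested, and below 0 for ISG15 and IFI6. The median was 0.19 over the 7 and 0.01 over all genes tested. The median of the 7 was 0.26 without GFP replicate 3. Fits that left out 1 library called both genes when it was GFP replicate 3, where 507 of all 17259 genes tested rose. They called IFI44L alone when GFP-812 replicate 1 was left out, IFIT1 alone when it was GFP-812 replicate 3 or GFP replicate 1, and neither when it was the second replicate of either group.

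IFIT1 (ENSG00000185745, hg38 chromosome 10, 89392546 to 89406487, plus strand) encodes a protein that binds RNA lacking the cap methylation of the cell's own messenger RNA and keeps it from being translated. Its level was 6.07, 6.0 and 5.22 FPKM in GFP-812 replicates 1, 2 and 3 and 4.55, 4.35 and 4.72 FPKM in GFP replicates 1, 2 and 3. The lowest GFP-812 library lay above the highest GFP library. These levels rest on 399, 432 and 424 counts against 339, 323 and 350. IFIT1 rose at a log2 fold change of 0.35 (SE 0.0889, 95% interval 0.17 to 0.53, edgeR adjusted p = 0.012), with means of 5.76 ± 0.472 against 4.54 ± 0.185 FPKM (SD, n = 3 each). The exact 2-sided permutation test on CPM gave p = 0.1, the smallest value that 3 against 3 libraries allow. With 1 library left out, the call was lost for GFP-812 replicate 1 (edgeR adjusted p = 0.0798), for GFP-812 replicate 2 (0.114) and for GFP replicate 2 (0.0684). It was also lost with limma on log2(FPKM + 1) (adjusted p = 0.221). The fitted value lay between 0.29 and 0.43 in all these fits and the others tried.

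IFI44L (ENSG00000137959, chromosome 1, 78619902 to 78646145, plus strand) is an interferon-induced gene beside IFI44, and its product is used as a marker of the response. It had 34, 65 and 67 counts in GFP-812 replicates 1, 2 and 3 and 31, 21 and 38 counts in GFP replicates 1, 2 and 3, or 0.21, 0.36 and 0.33 against 0.17, 0.11 and 0.20 FPKM. The groups did not overlap, but GFP-812 replicate 1 and GFP replicate 3 differed by 0.01 FPKM. IFI44L rose at a log2 fold change of 0.91 (SE 0.268, 95% interval 0.37 to 1.44, edgeR adjusted p = 0.0405). Among the GFP-812 libraries, the call depended on replicate 2 (edgeR adjusted p = 0.273 when left out) and replicate 3 (0.181), and among the GFP libraries on replicate 1 (0.114) and replicate 2 (0.21). It was also lost with limma-voom (adjusted p = 0.0526). With limma on log2(FPKM + 1), where the pseudocount is large beside levels under 1 FPKM, the fitted value was 0.16 (adjusted p = 0.328).

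Of the other 3 IFIT genes, none passed the test. IFIT5 (ENSG00000152778, chromosome 10, 89414568 to 89421605, plus strand), which binds RNA with a triphosphate end, stood at 4.25, 4.38 and 4.34 FPKM in GFP-812 libraries and 3.54, 3.74 and 4.22 FPKM in GFP libraries. The groups did not overlap, and GFP replicate 3 came nearest to the GFP-812 libraries. Its log2 fold change was 0.19 (95% interval -0.01 to 0.39, edgeR adjusted p = 0.349), and 0.26 without GFP replicate 3. The levels rest on 265, 299 and 334 counts against 250, 263 and 296. IFIT2 (ENSG00000119922, chromosome 10, 89283694 to 89309271, plus strand), a partner of IFIT1 and IFIT3 that also promotes cell death, stood at 1.93, 1.86 and 2.31 against 1.55, 1.61 and 1.9 FPKM, and GFP replicate 3 overlapped with the GFP-812 libraries. Its log2 fold change was 0.29 (95% interval -0.0035 to 0.58, edgeR adjusted p = 0.317), 0.38 without GFP replicate 3 and 0.19 without GFP-812 replicate 3. IFIT3 (ENSG00000119917, chromosome 10, 89327307 to 89377473, plus strand), which binds and stabilises IFIT1, stood at 0.65, 0.82 and 0.64 against 0.64, 0.71 and 0.70 FPKM, with groups that overlapped fully but for GFP-812 replicate 2. Its log2 fold change was 0.06 (95% interval -0.38 to 0.49), so a change of the size fitted for IFIT1 lies inside its interval.

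The 4 IFIT genes lie close together on chromosome 10. The table places LIPA, a lysosomal lipase gene on the opposite strand with 1741 to 2305 counts per library, across IFIT1, IFIT2 and IFIT3. Whether the counting used strand is not given in the sources used here, so reads from LIPA and these genes may not be separable. LIPA itself had a log2 fold change of 0.09 (edgeR adjusted p = 0.384). Stretches of 50 bases were compared in GENCODE 29 transcripts, which may differ from the annotation the authors used. Of these stretches, 2.75% of those of IFIT3, 0.928% of those of IFIT2 and none of those of IFIT1 also occur on the opposite strand of another gene. LIPA was among the other genes for IFIT2 but not for IFIT3. On the same strand, 7.5% of the stretches of IFIT2, 2.48% of those of IFIT3 and 1.02% of those of IFIT1 occur in another gene, and IFIT5, ISG15, IFI6, IFI44 and IFI44L share none on either strand. In the deposited table ISG15 also overlaps an unnamed gene on the opposite strand with 20, 24 and 24 counts in GFP-812 libraries and 12, 10 and 18 in GFP libraries.

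ISG15 and IFI6 had lower values in GFP-812 libraries, and neither passed the test. ISG15 (ENSG00000187608, chromosome 1, 1001138 to 1014540, plus strand) encodes a ubiquitin-like protein that is attached to other proteins. It stood at 3.07, 3.62 and 3.60 FPKM in GFP-812 libraries and 3.93, 3.73 and 5.67 FPKM in GFP libraries. The groups did not overlap, although GFP replicate 2 and GFP-812 replicate 2 differed by only 3 counts (52 and 49). Its log2 fold change was -0.36 (SE 0.227, 95% interval -0.81 to 0.10, edgeR adjusted p = 0.456), and the exact 2-sided permutation test gave p = 0.1. Without GFP replicate 3, its highest library, the fitted value was -0.14 (edgeR adjusted p = 0.831). IFI6 (ENSG00000126709, chromosome 1, 27666064 to 27672212, minus strand), a small membrane protein that protects cells from death and restricts some viruses, stood at 2.25, 2.39 and 2.49 against 1.99, 3.05 and 3.53 FPKM. The GFP libraries lay on both sides of the GFP-812 libraries, and the log2 fold change was -0.25 (95% interval -0.78 to 0.29, edgeR adjusted p = 0.706). That of IFI6 was -0.069 without GFP replicate 3, its highest library, and -0.45 without GFP replicate 1, its lowest.

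Groups that did not overlap in CPM were thus found for 3 genes with higher values in GFP-812 (IFIT1, IFIT5 and IFI44L) and 1 with lower values (ISG15), of the 7 tested. Over all genes tested the shares were 8.16% and 12.4%. Added together, the counts of the 10 genes came to 66.3, 69.0 and 66.4 CPM in GFP-812 replicates 1, 2 and 3 and to 53.9, 54.7 and 63.7 CPM in GFP replicates 1, 2 and 3. GFP replicate 3 lay nearer to the GFP-812 libraries than to the other GFP libraries in this sum.

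**Figure D3:**
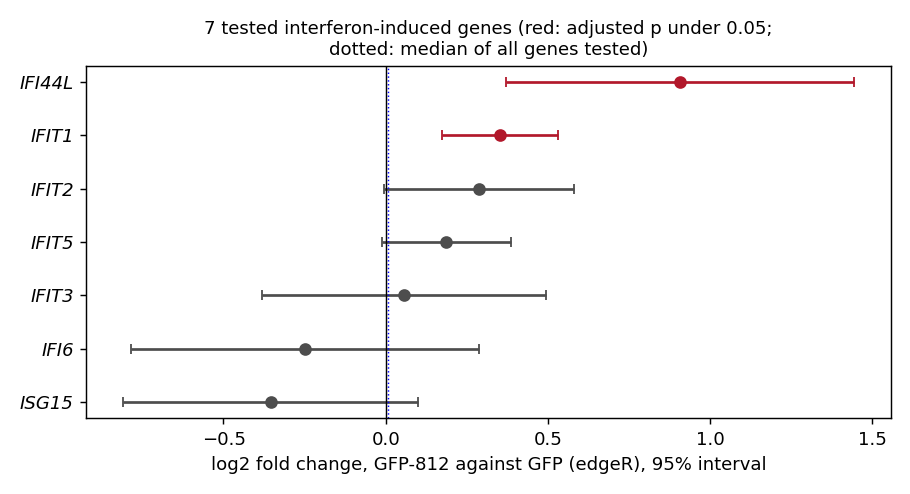
Log2 fold changes of the 7 tested genes in GFP-812 against GFP from edgeR, with 95% intervals (red, adjusted p under 0.05; dotted line, median of all genes tested, 0.01). The intervals of IFI44L and IFIT1 lie above 0, and those of IFIT2, IFIT5, IFIT3, IFI6 and ISG15 reach across it.

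The other 3 genes were too low to test. IFI44 (ENSG00000137965, chromosome 1, 78649796 to 78664078, plus strand), the neighbour of IFI44L, had 3, 4 and 5 counts in GFP-812 libraries and 4, 0 and 12 counts in GFP libraries, so that GFP replicate 3 held 12 of the 16 GFP counts. MX1 (ENSG00000157601, chromosome 21, 41420020 to 41470071, plus strand), a GTPase of the dynamin family that blocks steps of virus entry and replication, had 10, 2 and 8 counts against 1, 4 and 3. The summed 20 and 8 counts have exact 95% Poisson intervals of 12.2 to 30.9 and 3.45 to 15.8, which cover counting error only, and the libraries overlapped. Fitted without the filter, MX1 had a log2 fold change of 1.33 (95% interval -0.31 to 2.96, edgeR adjusted p = 0.667). The 3' end of MX1 overlaps TMPRSS2 on the other strand, which had 0, 5 and 1 counts against 1, 4 and 11. OAS1 (ENSG00000089127, chromosome 12, 112905856 to 112933219, plus strand), which makes the oligoadenylate signal that activates RNase L, had 0, 0 and 2 counts against 0, 1 and 3, and no difference was detectable at this depth.

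The other genes of the pathway are given from lists by role, each list tested within the fit over all genes. DESeq2 without independent filtering and the limma fits also called no sensor, adaptor, receptor, feedback or other interferon-induced gene and no class I or gamma gene on these lists. Of all 16834 genes tested in edgeR, 1.18% were called risen and 2.67% fallen. An unadjusted p under 0.05 was found for 2717, and 51.8% were fitted above 0. The groups did not overlap for 20.6% of all genes, with higher values in GFP-812 for 8.16% and lower for 12.4%. Genes named for the smallest p of a list were picked on these same values, so separate groups in them add no support. Interferon messenger RNA itself was almost absent in both groups. All 13 interferon genes on the list lay at or under 0.3 FPKM in every library, and their counts together came to 1 to 13 per library. IFNB1, an interferon that cells usually make first, had 0.07 FPKM in GFP replicate 1 and 0 in the other 5 libraries. None of the 13 had enough counts to be tested.

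On the list of sensors of foreign nucleic acid, which also holds ADAR, not itself such a sensor, 11 of 13 genes stayed under 1 FPKM in every library. The exceptions were ADAR, which edits RNA, at 27.8 to 30.2 FPKM and EIF2AK2, the kinase PKR that halts translation, at 12.3 to 13.4 FPKM. The DNA sensor CGAS reached at most 0.13 FPKM and its partner STING1 stood at 0.45 to 0.74 FPKM; these 4 genes were picked for their role after the values were seen. Of the 8 genes of this list that were tested 0 rose and 0 fell, where 1.18% of all genes tested rose and 2.67% fell. Their median log2 fold change was -0.02, and none had an unadjusted p under 0.05 in edgeR. DHX58, an RNA sensor related to RIG-I, had the smallest p (log2 fold change 0.78, 95% interval -0.06 to 1.61, adjusted p = 0.352), and its value ran from 0.38 without GFP replicate 1 to 1.37 without GFP replicate 2.

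Of 14 kinases, adaptors and transcription factors that carry the sensors' signal, 4 lay under 1 FPKM in every library. IRF5 and IRF7 were too low to test, and none of the 12 tested passed, where 3.84% of all genes tested did. The summed level of the 14 was 436.9 to 443.1 CPM in GFP-812 libraries and 457.9 to 490.1 in GFP libraries. Of the 12, 9 had fitted values below 0 (median log2 fold change -0.12), while 51.8% of all genes tested were fitted above 0. At an unadjusted p under 0.05 were 4 of the 12, against 2717 of all 16834 genes tested. TBK1, the kinase that activates IRF3, stood at 5.18, 4.47 and 4.48 against 5.23, 5.35 and 5.25 FPKM. The groups did not overlap. Its log2 fold change was -0.15 (SE 0.0579, edgeR adjusted p = 0.133), and -0.23 without GFP-812 replicate 1, where it passed (adjusted p = 0.0283).

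Of 14 genes of receptors and signal transducers, 5 lay under 1 FPKM in every library. STAT2 stood at 2.98 to 3.19 FPKM over the 6 libraries, JAK1 at 11.3 to 12.4 FPKM, and IRF9 at 0.20 to 0.48 FPKM; these were picked for their role after the values were seen. Of the 14 genes, all tested, 0 rose and 0 fell, where 1.18% of all genes tested rose and 2.67% fell. At an unadjusted p under 0.05 were 3, and the median log2 fold change was -0.01. Fitted values lay above 0 for 5 of the 14 and below 0 for 9. The highest was that of IRF9, at 0.82 (95% interval 0.19 to 1.45, edgeR adjusted p = 0.145). IFNLR1, the receptor chain of lambda interferons, had the smallest p, at 2.14, 2.00 and 1.85 against 2.55, 2.76 and 2.51 FPKM. The groups were separate, as they were, with lower values in GFP-812, for 12.4% of all genes tested. The log2 fold change of -0.37 (95% interval -0.62 to -0.12) did not pass in edgeR (adjusted p = 0.0778). Of 9 feedback inhibitors tested 0 passed, and PTPN2, a phosphatase of JAK and STAT proteins, had the smallest p (log2 fold change 0.07, edgeR adjusted p = 0.681).

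From a longer list of 46 further interferon-induced genes, 30 could be tested. Of these 30, 0 rose, 0 fell and 30 did not pass in edgeR, where 1.18% of all genes tested rose and 2.67% fell. At an unadjusted p under 0.05 were 7 of the 30, against 2717 of all 16834 genes tested. Fitted values lay above 0 for 19 of the 30, against 51.8% of all genes, with a median log2 fold change of 0.06. BST2, known as tetherin, which holds virus particles on the cell surface, had the smallest p. It stood at 3.63, 4.01 and 4.13 FPKM in GFP-812 libraries and 2.59, 2.15 and 2.54 FPKM in GFP libraries. The groups were separate by more than 1 FPKM, and the log2 fold change of 0.71 (SE 0.22, 95% interval 0.27 to 1.15) lay just outside the threshold (edgeR adjusted p = 0.0537). BST2 passed without GFP replicate 3 (adjusted p = 0.0467), when TRIM5 passed as well, among genes at a mean of at least 1 FPKM (0.0433) and with the replicate number as a block (0.0457). Without GFP replicate 3, 507 of all 17259 genes tested rose, against 198 of 16834 with all 6 libraries. No gene of this list passed in the fits that each left out 1 of the other 5 libraries.

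Targets of interferon gamma and genes of class I antigen presentation did not pass either. Of 13 gamma targets, 12 stayed under 1 FPKM in every library and 3 could be tested, among them GBP2, a GTPase that attacks vacuoles of microbes (log2 fold change 0.47, edgeR adjusted p = 0.349). Of 13 class I presentation genes tested, 11 were fitted above 0, against 51.8% of all genes tested. The median was 0.10, and 3 had an unadjusted p under 0.05, against 2717 of all 16834 genes. HLA-B stood at 19.1, 21.2 and 19.4 against 18.3, 18 and 18.4 FPKM, without overlap (log2 fold change 0.14, SE 0.0531, edgeR adjusted p = 0.144). HLA-C and HLA-E passed without GFP replicate 3, a fit in which 507 of all 17259 genes tested rose, against 198 of 16834 with all 6 libraries.

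**Figure D4:**
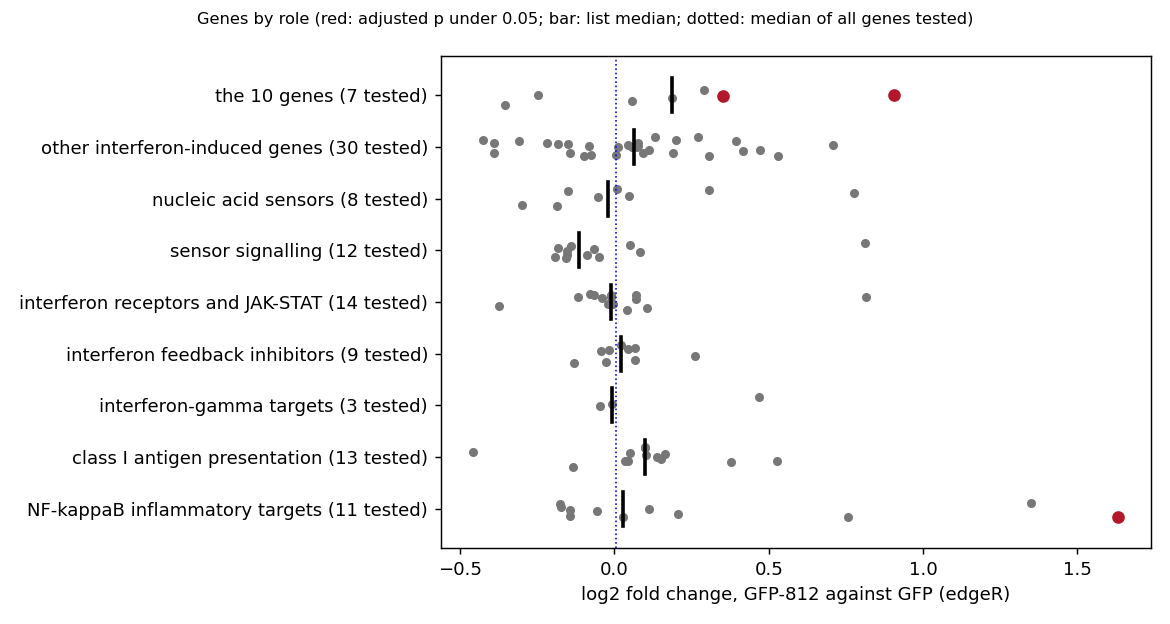
Log2 fold changes in GFP-812 against GFP (edgeR) of the tested genes of 9 lists, each point 1 gene (red, adjusted p under 0.05), with the list median as a bar and the median of all genes tested as a dotted line. IFIT1 and IFI44L are the red points among the 10 genes and CXCL8 is the red point among the NF-kappaB targets.

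Of 11 inflammatory NF-kappaB targets tested, 1 rose, 0 fell and 10 did not pass, with a median of 0.03. Of all genes tested, 1.18% rose and 2.67% fell. The target that rose, CXCL8, encodes the chemokine interleukin-8, which draws neutrophils. It had 178, 242 and 231 counts in GFP-812 replicates 1, 2 and 3 and 4, 7 and 204 counts in GFP replicates 1, 2 and 3. GFP replicate 3 lay at the level of the GFP-812 libraries, between 2 of them in FPKM, so the groups overlapped. The fitted log2 fold change was 1.63 (SE 0.348, edgeR adjusted p = 0.002), and it was 5.31 without GFP replicate 3 (adjusted p = 1.08e-28). The second replicate of each group also decided the call: leaving out that of GFP-812 gave an edgeR adjusted p of 0.0696, and leaving out that of GFP gave 0.0589 at a log2 fold change of 1.09. The value was 1.08 without GFP replicate 1 and 3.55 with limma-voom, which also called the gene. Limma did not call CXCL8 on log2(FPKM + 1) (adjusted p = 0.318) or on log2(FPKM + 0.1) (0.4), and DESeq2 gave it no adjusted p and called none of the 11 targets. IL6, the interleukin-6 gene, passed beside CXCL8 in the limma-voom fit and without GFP replicate 3. HES4, the gene beside ISG15, had a log2 fold change of 0.20 (edgeR adjusted p = 0.272). It passed without GFP replicate 3 (log2 fold change 0.32, edgeR adjusted p = 0.0381). In the fit without GFP replicate 3, 507 of all 17259 genes tested rose, against 198 of 16834 with all 6 libraries.

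Leukocytes, which respond strongly to interferon, left little trace in these libraries. PTPRC, MS4A1, CD3D and CLEC4C were at or near 0 in every library, and 10 of the 12 leukocyte markers lay under 1 FPKM throughout, and the 12 together made 5.76 to 6.42 CPM in GFP-812 libraries and 4.52 to 7.28 in GFP libraries. Of 4 neuronal filament genes, which 293T cells are known to express, 3 were tested. NEFM and NEFL rose (log2 fold changes 0.30 and 0.17, edgeR adjusted p = 1.46e-05 and 0.0372), as did 1.18% of all genes tested. Neither was called by limma on log2(FPKM + 1) or log2(FPKM + 0.1). NEFL was also not called with total-count scaling, with DESeq2, or in the fits that left out GFP-812 replicate 2 or 3 or GFP replicate 1 or 2. Their summed level was 357.5 to 396.4 CPM in GFP-812 and 301.3 to 343.9 in GFP libraries. Epithelial markers made 138.4 to 149.4 against 132.2 to 135.7, and fibroblast and endothelial markers 23.0 to 26.6 against 18.9 to 23.4 CPM. The part of any of these in the values of IFIT1 and IFI44L was not tested. In bulk RNA, a change in the number of cells that express a gene and a change in RNA per cell cannot be told apart.

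Over the 6 libraries, the mean log2 CPM of the 7 tested genes was followed most closely by CMAS, which activates sialic acid, SYNGR2, a vesicle protein, and ARF5, a small GTPase of membrane traffic. Pearson's r was 0.996, 0.993 and 0.992 and Spearman's rho 0.943, 0.943 and 1 (n = 6 libraries). They are the highest of 16827 genes searched, all values share the same libraries and scaling, and none of the 3 passed the test between groups (edgeR adjusted p 0.307 to 0.433).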

How the data were processed

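RNA of transfected 293T cells was measured by poly(A) RNA-seq, with 3 libraries per plasmid. The submitters' processing notes name HISAT2 2.2.1, HTSeq 0.6.1, cutadapt 1.9.1, FastQC 0.10.1 and the build hg38. Neither the strand setting nor the annotation release is given in the sources used here. The authors deposited 1 table with raw counts and FPKM per library; dividing counts by the table's exonic size and library total returned the deposited FPKM for 100% of values within 0.0051. Columns were matched to samples by library name.

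Counts were tested with edgeR 4.0.16 in R 4.3.3 (filterByExpr, TMM, quasi-likelihood, group as single term, all 6 libraries), and p-values (2-sided) were adjusted over 16834 genes by the Benjamini-Hochberg method. Standard errors and 95% intervals were computed from the F statistic. The script was tested on simulated data. Alternatives used limma 3.58.1, DESeq2 1.42.0, other scalings and filters, the replicate block and fits without each library; DESeq2 without independent filtering was added after the data were seen.

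The genes and lists were chosen with earlier results of these data known. Named were all 10 genes, NEK1, up to 4 genes past the threshold per list or else the gene with the smallest p, and the 3 genes most alike in pattern. RIGI was matched through its older symbol DDX58. Promoter sequences are from RefSeq (GRCh38.p14).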

Additional observations from a re-analysis of the deposited data

How the results depend on the processing

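Of the 10 genes, IFIT1 and IFI44L were called under other edgeR scalings (median-of-ratios, total counts, TMM without NEK1) and with no low-count filter. The number called was 1 with limma-voom (IFIT1), 1 at a mean of at least 1 FPKM, where IFI44L was not tested, 1 with DESeq2 without independent filtering (IFIT1), and 0 with limma on log2(FPKM + 1) or log2(FPKM + 0.1), where 2 of the 7 had an unadjusted p under 0.05. DESeq2's own filter gave none of the 7 an adjusted p. Leaving out 1 library gave 0 to 2 called genes. The count over all genes was 647, and it was 4 with limma on log2(FPKM + 1), 4 with log2(FPKM + 0.1), 405 with DESeq2 without independent filtering and 209 to 1317 without 1 library. With the replicate number as a block, 2 of the 10 genes and 777 genes in all were called, and among the named genes of the other lists the call of BST2 changed (edgeR adjusted p = 0.0457); deviations of same-numbered libraries correlated at 0.0318, -0.0102 and 0.00614, so the numbers were not taken to pair libraries. The log2 fold change of IFIT3 (0.06) turned to -0.068 without GFP-812 replicate 2, and ranged from -0.068 to 0.13 without 1 library; the other 6 tested genes kept their direction under every alternative that gave a value. Counts of 0 to 12 per library limit IFI44, MX1 and OAS1.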

Other observations

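The ISRE search was repeated on the other lists, as a description of promoter letters only. The ISRE core (GAAA, any 2 bases, GAAA, on either strand) lay in 27 of 49 promoter windows of the further interferon-induced genes (55.1%), in 8 of 10 windows of interferon gamma targets (80%) and in 9 of 16 windows of class I antigen presentation genes (56.2%). It lay in 4 of 13 windows of the interferon genes and in 4 of 11 windows of the sensor list. The NF-kappaB targets, a list that holds CXCL8, had it in 0 of 17 windows. Over all 35116 windows the share was 3.57%.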
